A study of Mus musculus with 6 samples.

Results

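A set of 39 macrophage and leukocyte genes was followed in fetal mouse gonads with and without conditional deletion of Sox9, out of 19937 genes measured. The set was a list of 40 names, of which Emr1 is the former symbol of Adgre1 and was counted with it. Only probe sets annotated to exactly 1 gene were used, and where a gene had several, the one with the greatest average across the 6 arrays stood for it. All 39 genes had such a probe set. None of the 39 passed the test between mutant and wild type, and 19 lay above a background mark in both groups.

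Gonads were dissected without the mesonephros at E13.5 (E stands for embryonic day), and total RNA, 300 ng per array, was hybridised to 6 Affymetrix MoGene arrays, with a separate pool on each. Wild-type arrays carried the numbers 1, 2 and 5, each from a pool of 6 gonads. Arrays 3, 4 and 6 each held a pool of 12 gonads of genotype Sox9flox/flox; Sf1:creTr/+, called the Sox9 mutant below. Both groups came from C57BL6/J mice crossed with 129 and kept on a mixed background. In the mutant a Cre transgene under regulatory sequence of Nr5a1 (Sf1), active in somatic cells of the gonad, acts on floxed alleles of Sox9, the transcription factor of Sertoli cell differentiation. No animals with Cre alone or with floxed alleles alone were among the samples, and the sex of the embryos, their litters and any batch are not given in the labels. The p-values therefore measure only the spread between these pools.

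Macrophages reach the fetal gonad from yolk sac and later hematopoietic progenitors, and in the fetal testis they engulf cells and take part in remodelling of the vasculature. Their survival depends on the receptor Csf1r and its ligand Csf1, and the transcription factor PU.1, encoded by Spi1, directs their differentiation. They clear dead cells and debris through scavenger receptors, Fc receptors and the complement component C1q, and digest them in lysosomes.

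Values are deposited log2 RMA values, so a difference of 1 is a 2-fold change, and differences are given as mutant minus wild type with the moderated standard error of the fit. Values of different probe sets depend on their probes, so they do not rank genes by amount of RNA. Placing a probe set above or below the background mark, which other probe sets define, is therefore approximate. The background mark was 6.67 log2, below which 95% of 1208 probe sets for olfactory or vomeronasal receptors had their average, genes with little expected transcription in the gonad. Values near that mark are compressed, so differences there are understated. In a bulk sample, fewer cells of a type and less RNA per cell cannot be told apart.

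The genotype was visible in the targeted gene and in the somatic cell markers. Sox9 was 1.31 log2 lower in the mutant (limma adjusted p = 0.00124). Of the Sertoli markers 7 of 8 fell, of the Leydig markers 4 of 4 fell, and of the pregranulosa markers 6 of 6 rose. Mutant array 4 stood apart from mutants 3 and 6. Deviations from each gene's mean over the 6 arrays had medians of -2.75, -0.25 and -2.81 for Leydig markers on mutants 3, 4 and 6. For Sertoli markers the medians were -1.58, -0.37 and -1.20, and for the 39 members 0.00, -0.01 and -0.02. The cause was not tested. Without mutant 4 the lowest limma adjusted p of a member was 0.126. The calls of Amh and Cyp11a1 were lost with a trended, robust variance model, and that of Cyp17a1 with it and without wild type 1, 2 or 5 or mutant 3 (limma adjusted p up to 0.15). Correlations between arrays over all probe sets ran from 0.984 to 0.992 within groups and from 0.969 to 0.985 between groups. Wild-type array 5 stood apart in liver genes: Afp and Alb read 11.26 and 11.42 there, against means of 5.71 and 6.00 on the other wild-type arrays. The differences of the 39 members and of the called genes of other lists were therefore also fitted without that array.

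Of the 39 leukocyte genes, 19 lay above the mark in both groups, 18 in neither, and 2 in 1 group only. The 2 were Lyz2, above it in wild type, and Lyz1, above it in the mutant. Among all genes, 12548 of 19937 were above it in both groups. Of 15 markers that define macrophages or leukocytes, 7 were above the mark in both groups and 7 in neither. Those 7 below it were Adgre1 (the F4/80 antigen), Aif1, Fcgr3, Ptprc (CD45), Tyrobp, Mrc1 and Spi1. At this mark the leukocyte label of the set thus rested in these arrays on part of its defining genes. Against a stricter mark, the 99th percentile of the receptor probe sets at 7.39 log2, 7 members remained: Trem2, Stab1, Lgmn, Laptm5, Lcp1, Dab2 and Apoe. None of the 15 defining markers was among these 7, so at the stricter mark the label rested on no defining gene.

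**Figure D1:**
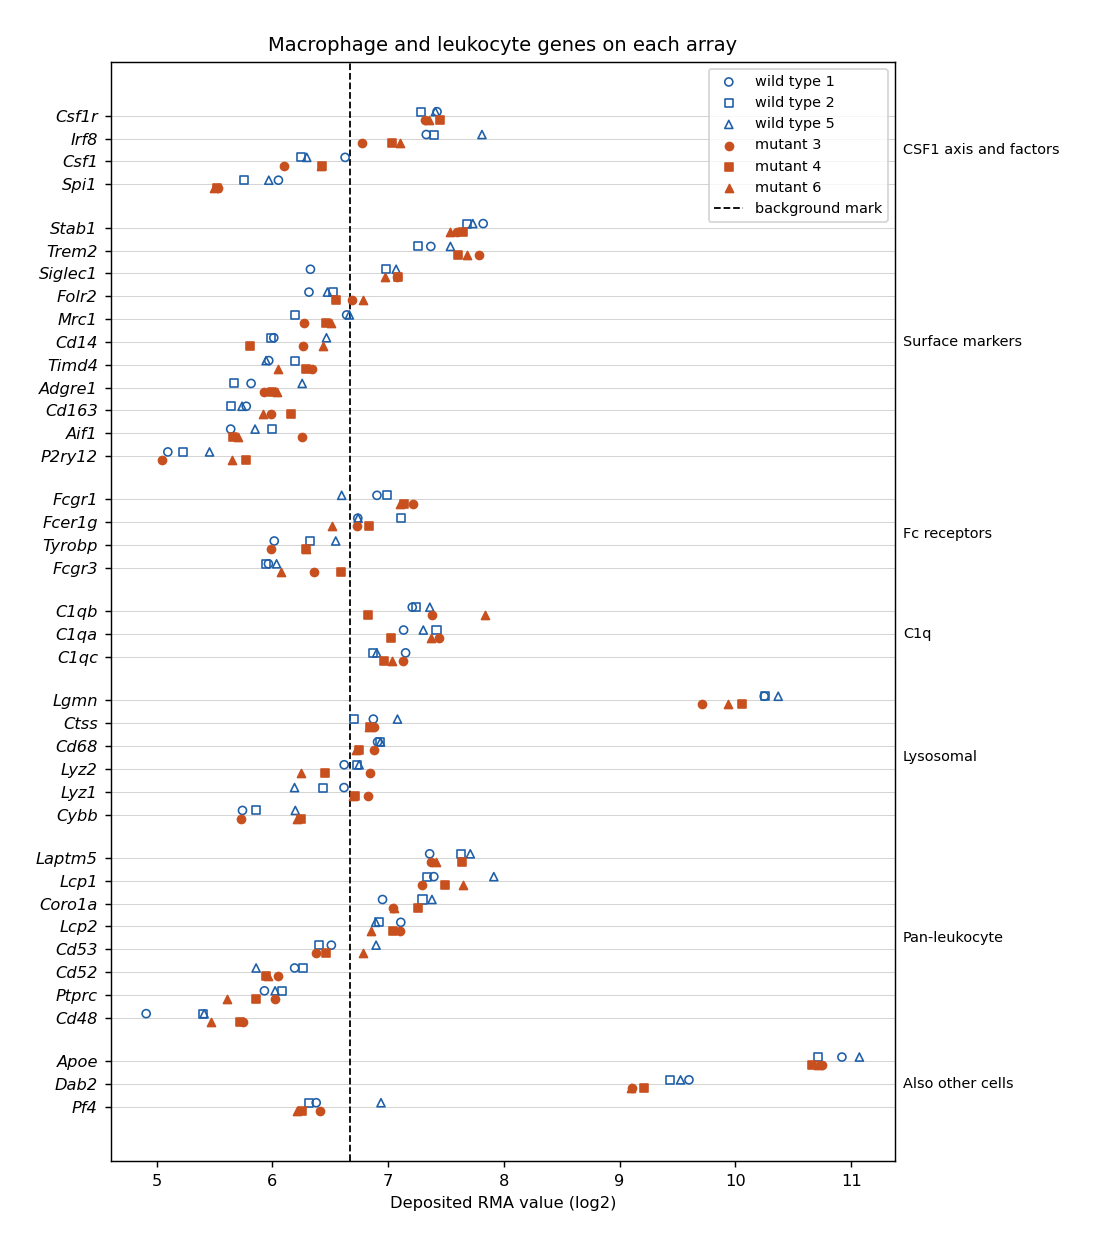
Deposited log2 RMA value (x axis) of each of the 39 genes (rows, ordered by role) on every array; open blue symbols are the 3 wild-type pools, filled orange symbols the 3 mutant pools, and the dashed line is the background mark of 6.67 log2. Wild-type and mutant symbols overlap in range for 26 of the 39 genes, and 18 genes lie left of the line in both group means.

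In the comparison of mutant with wild type, 0 of 39 members passed a limma adjusted p of 0.05, against 6.94% of all genes (2.64% called higher and 4.30% lower). At an unadjusted p under 0.05 there were 10 members, 6 higher and 4 lower in the mutant, of 39, against 21.7% of all genes. The 3 mutant arrays did not overlap the 3 wild-type arrays for 13 members, 7 higher and 6 lower, where 28.7% of all genes did not overlap. Both of these shares were near the background. The differences were positive for 18 members and negative for 21, with a median of -0.03 log2 beside 0.00 for all genes. For the 19 members above the mark the median was -0.07, beside -0.04 for all genes above it.

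The precision allowed a bound on each measured difference. Every one of the 39 confidence intervals (95%) of the difference lay within 1 log2 of 0 on either side, that is within a 2-fold change on the RMA scale. For the 18 members below the mark in both groups this bounds the measured value only, because differences there are understated. The half-width of those intervals ran from 0.24 to 0.50 log2 with a median of 0.32. The largest measured difference was that of Irf8, 1.46-fold lower in the mutant.

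**Figure D2:**
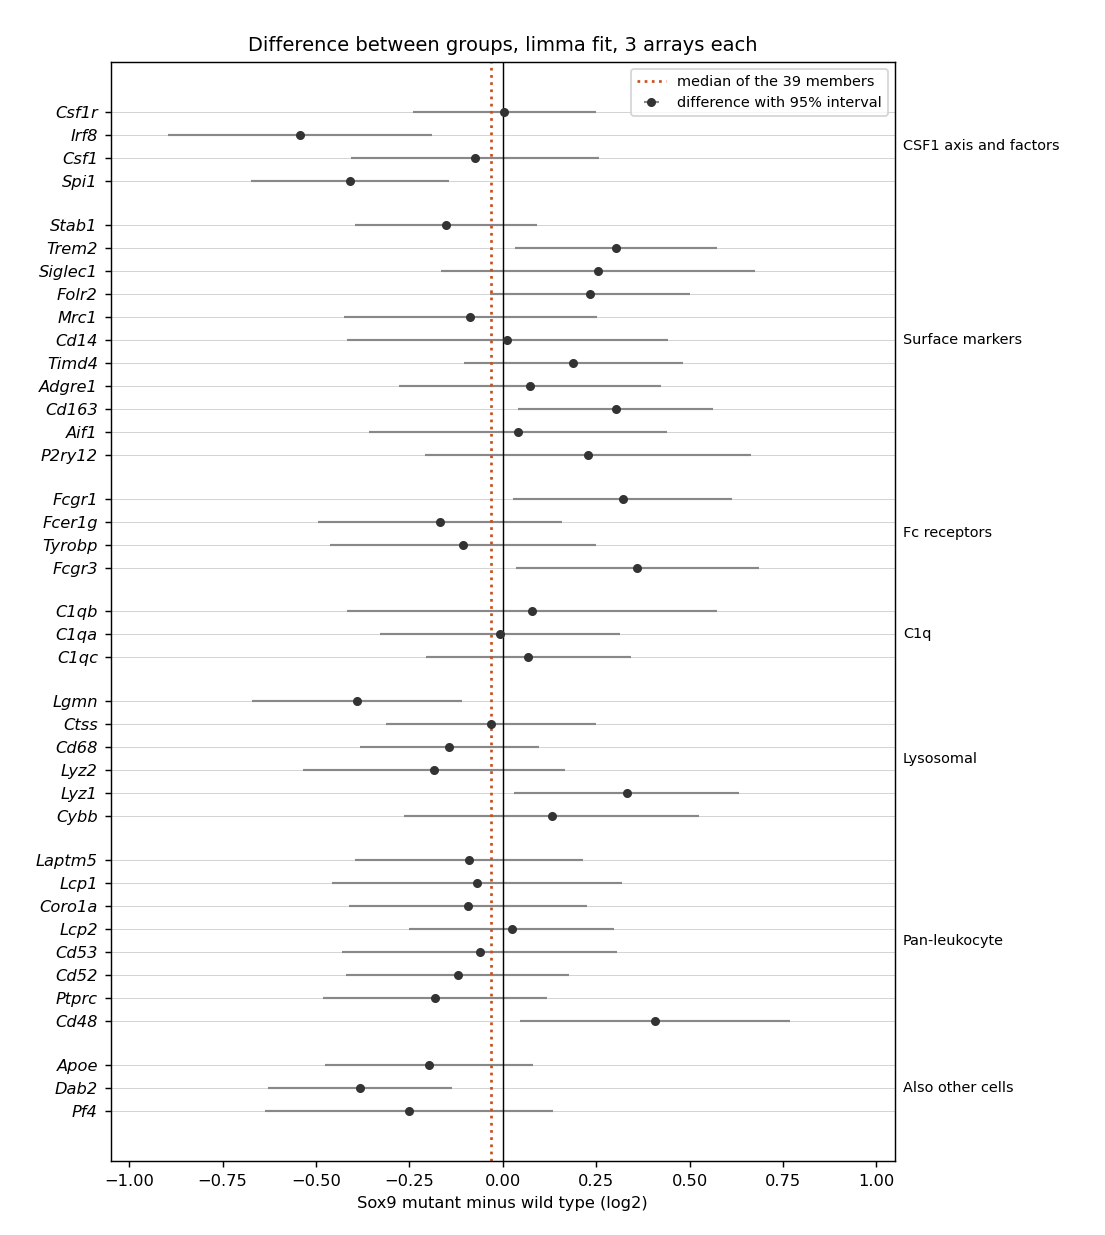
Difference between mutant and wild type (x axis, log2, mutant minus wild type) for the 39 genes in order of role; points are limma estimates from 3 arrays a group, bars their 95% confidence intervals, and the dotted line the members' median of -0.03. Of the intervals, 10 exclude 0 before adjustment, and none reaches 1 log2 in either direction.

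Of the 4 genes of the CSF1 axis and its transcription factors, Irf8 and Spi1 were lower in measured value on every mutant array without passing the adjusted threshold, while Csf1r and Csf1 overlapped. Csf1r, the receptor that macrophages need to survive, read 7.42, 7.28 and 7.41 in wild type (arrays 1, 2 and 5, in that order here and below). In the mutant (arrays 3, 4 and 6) it read 7.32, 7.45 and 7.36. The groups overlapped throughout, with a difference of 0.00 ± 0.11 log2, an interval from -0.24 to 0.25 and a limma adjusted p of 0.990. Its ligand Csf1 was below the mark in both groups, at 6.63, 6.25 and 6.30 in wild type and 6.10, 6.43 and 6.42 in the mutant. The 2 groups overlapped here too (difference -0.07 ± 0.15, limma adjusted p = 0.848).

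Irf8, a transcription factor of monocytes, macrophages and dendritic cells, read 7.33, 7.40 and 7.81 in wild type and 6.78, 7.04 and 7.10 in the mutant. All 3 mutant arrays lay below all 3 wild-type arrays, and wild type 5 was the highest. The difference was -0.54 ± 0.16 log2 (interval -0.89 to -0.19), with an unadjusted p of 0.00695 and a limma adjusted p of 0.0865. Without wild type 5 it was -0.39 with an adjusted p of 0.208. With arrays 5 and 6 set against the other 4 arrays as an added term, the adjusted p was 0.0238, below the threshold. Over all alternatives run it ranged from 0.0238 to 0.262.

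Spi1, which encodes PU.1, read 6.05, 5.76 and 5.97 in wild type and 5.53, 5.53 and 5.50 in the mutant. The groups did not overlap, but every value lay under the background mark. The difference was -0.41 ± 0.12 log2 (interval -0.67 to -0.14), with an unadjusted p of 0.00684 and a limma adjusted p of 0.0858 that ranged from 0.0620 to 0.274 over the alternatives.

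Of the 11 surface markers measured, 9 had positive and 2 negative differences, with a median of 0.19 log2, and 3 lay above the mark in both groups. Stab1, the scavenger receptor stabilin-1, read 7.82, 7.68 and 7.73 in wild type and 7.60, 7.65 and 7.54 in the mutant. Its groups did not overlap, yet the difference was small against its error (-0.15 ± 0.11, limma adjusted p = 0.508). Trem2, a lipid-sensing receptor of macrophages and microglia, read 7.37, 7.26 and 7.54 in wild type and 7.79, 7.61 and 7.68 in the mutant. All mutant arrays were above all wild-type arrays, by 0.30 ± 0.12 log2 (interval 0.03 to 0.57), with a limma adjusted p of 0.205. Siglec1 (sialoadhesin) differed by 0.25 ± 0.19 with wild type 1 the lowest array at 6.33. Without wild type 1 its difference was 0.022 (limma adjusted p = 0.967).

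The other 8 surface markers were below the mark in both groups. Cd163, the haptoglobin-hemoglobin receptor, read 5.78, 5.64 and 5.74 in wild type and 5.99, 6.16 and 5.92 in the mutant. The mutant arrays were all higher, by 0.30 ± 0.12 log2 with a limma adjusted p of 0.189. Folr2, a folate receptor of tissue-resident macrophages, did not overlap either and was 0.23 ± 0.12 log2 higher. Adgre1 read 5.82, 5.67 and 6.26 in wild type and 5.93, 5.99 and 6.04 in the mutant, all below the mark and overlapping. The differences of Mrc1 (mannose receptor), Cd14 (a co-receptor for lipopolysaccharide), Timd4 (a phosphatidylserine receptor), Aif1 and P2ry12 ran from -0.09 to 0.23, with overlapping groups.

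In the group of Fc receptors and signalling adaptors, Fcgr1 (the high-affinity IgG receptor) read 6.90, 6.99 and 6.60 in wild type and 7.21, 7.14 and 7.10 in the mutant. The groups did not overlap, and the difference was 0.32 ± 0.13 log2 (interval 0.03 to 0.61, limma adjusted p = 0.214), or 0.21 without wild type 5. Fcgr3, a low-affinity IgG receptor below the mark, was also higher on every mutant array, by 0.36 ± 0.14 log2 with a limma adjusted p of 0.209, or by 0.23 without mutant 4. The 2 signalling adaptors had negative differences, -0.17 ± 0.14 for Fcer1g (the Fc receptor gamma chain) and -0.11 ± 0.16 for Tyrobp (DAP12), with overlapping groups.

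The 3 C1q chains, which macrophages secrete and which assemble into one complement component, were all above the mark. C1qa read 7.13, 7.42 and 7.30 in wild type and 7.44, 7.03 and 7.37 in the mutant (difference -0.01 ± 0.14, limma adjusted p = 0.987). C1qb read 7.21, 7.24 and 7.36 in wild type and 7.38, 6.83 and 7.84 in the mutant (0.08 ± 0.22, limma adjusted p = 0.90). C1qc read 7.15, 6.87 and 6.90 in wild type and 7.13, 6.97 and 7.03 in the mutant (0.07 ± 0.12, limma adjusted p = 0.830). All 3 chains overlapped between the groups, and mutant array 4 was the lowest mutant array for each. The spread of C1qb among the mutant arrays gave it the widest interval of the 39 genes, -0.42 to 0.57 log2.

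PU.1 binds purine-rich sites with the core GAGGAA, and the 250 bases before the annotated starts were searched for these letters on both strands. The RefSeq promoters searched (GRCm38.p6) did not cover every chromosome. They matched 31 of the 39 genes, and 16 of these 31 (51.6%) held the letters, against 6986 of 27025 genes searched (25.9%). A member without a match may still have an annotated promoter that was not searched. A match describes the sequence only, and genes with several starts had more than 1 chance to match. The windows of 4 members above the mark are printed as examples, 5′ to 3′ on the gene's strand, with GAGGAA or its reverse complement TTCCTC in capitals. C1qb (chr4:136886201-136886450, minus strand) has it 30 bases before the start, and C1qc (chr4:136892915-136893164, minus strand) 193 bases before. Laptm5 (chr4:130913066-130913315, plus strand) has it 38 bases and Trem2 (chr17:48346151-48346400, plus strand) 40 bases before the start. Both Irf8 windows lack these letters.
C1qb: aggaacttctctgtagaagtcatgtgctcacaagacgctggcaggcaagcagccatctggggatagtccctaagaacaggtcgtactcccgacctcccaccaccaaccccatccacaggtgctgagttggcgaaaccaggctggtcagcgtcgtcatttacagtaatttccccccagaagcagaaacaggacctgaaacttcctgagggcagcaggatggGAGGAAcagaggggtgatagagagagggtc
C1qc: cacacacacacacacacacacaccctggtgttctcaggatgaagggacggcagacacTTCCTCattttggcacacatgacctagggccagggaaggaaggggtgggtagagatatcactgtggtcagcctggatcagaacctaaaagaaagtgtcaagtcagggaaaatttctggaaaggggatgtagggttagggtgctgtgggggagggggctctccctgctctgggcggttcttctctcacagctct
Laptm5: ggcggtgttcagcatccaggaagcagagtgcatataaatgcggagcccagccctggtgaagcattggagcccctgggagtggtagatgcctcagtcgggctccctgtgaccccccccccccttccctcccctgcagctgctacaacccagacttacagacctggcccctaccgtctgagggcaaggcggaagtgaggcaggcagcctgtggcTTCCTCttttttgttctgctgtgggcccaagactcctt
Trem2: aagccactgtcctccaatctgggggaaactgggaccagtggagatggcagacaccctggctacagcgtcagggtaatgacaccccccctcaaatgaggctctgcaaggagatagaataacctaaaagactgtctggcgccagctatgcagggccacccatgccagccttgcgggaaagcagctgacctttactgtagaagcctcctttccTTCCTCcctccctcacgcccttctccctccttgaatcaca
The 4 genes above differed in sign between mutant and wild type, and none passed the test.

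Among the 6 lysosomal and antimicrobial genes, 2 differences were positive and 4 negative, with a median of -0.09 log2. Lgmn, the lysosomal protease legumain, read 10.25, 10.26 and 10.37 in wild type and 9.71, 10.06 and 9.94 in the mutant. No mutant array reached the wild-type arrays, and the difference was -0.39 ± 0.13 log2 (interval -0.67 to -0.11), with an unadjusted p of 0.0120 and a limma adjusted p of 0.120 that ranged from 0.0677 to 0.320. Cd68, a lysosomal membrane glycoprotein of macrophages, read 6.91, 6.93 and 6.93 in wild type and 6.88, 6.75 and 6.72 in the mutant. It did not overlap, with a small difference of -0.14 ± 0.11 (limma adjusted p = 0.536). Ctss (cathepsin S) and Cybb (a subunit of the phagocyte NADPH oxidase) overlapped, at -0.03 ± 0.13 and 0.13 ± 0.18.

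The lysozyme genes Lyz1 and Lyz2 are near-identical copies whose probe sets can share signal, so their values are uncertain. Lyz1 was higher on all mutant arrays by 0.33 ± 0.13 log2 (limma adjusted p = 0.211; 0.22 log2 without wild type 5), while Lyz2 differed by -0.18 ± 0.16 with overlapping groups.

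Of the 8 pan-leukocyte genes, 2 differences were positive and 6 negative, with a median of -0.08 log2. Laptm5, a lysosomal membrane protein of hematopoietic cells, read 7.36, 7.63 and 7.71 in wild type and 7.37, 7.64 and 7.41 in the mutant, with overlapping groups (-0.09 ± 0.14, limma adjusted p = 0.786). Ptprc, the CD45 phosphatase found on nearly all leukocytes, read 5.93, 6.09 and 6.02 in wild type and 6.03, 5.86 and 5.61 in the mutant, all below the mark. Its difference was -0.18 ± 0.13 with a limma adjusted p of 0.526. Cd48, an adhesion molecule of leukocytes, read 4.91, 5.40 and 5.41 in wild type and 5.75, 5.72 and 5.47 in the mutant. It was higher on every mutant array by 0.41 ± 0.16 log2 (interval 0.04 to 0.77, limma adjusted p = 0.203), and by 0.24 without wild type 1, far below the mark on all arrays. The actin-bundling Lcp1, the actin-binding Coro1a, the adaptor Lcp2 and the surface proteins Cd53 and Cd52 had differences from -0.12 to 0.02 with overlapping groups.

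The remaining 3 members were grouped as genes also made by cells other than leukocytes, and all 3 had negative differences. That grouping does not make the other members, Lgmn among them, specific to leukocytes. Dab2, an endocytic adaptor of macrophages and of several epithelia, read 9.60, 9.43 and 9.53 in wild type and 9.11, 9.21 and 9.10 in the mutant. The groups were well separated, by -0.38 ± 0.11 log2 (interval -0.63 to -0.13), with an unadjusted p of 0.00666 and a limma adjusted p of 0.0845. The adjusted p was 0.0431, below the threshold, when only probe sets above the mark were fitted. A second probe set of Dab2, with readings from 4.06 to 4.33 log2, differed by -0.04 (limma adjusted p = 0.917), and the mean of the 2 by -0.21 (limma adjusted p = 0.339). Apoe, a lipid carrier made by macrophages and many other cells, read 10.92, 10.72 and 11.07 in wild type and 10.75, 10.66 and 10.71 in the mutant, which overlap (-0.20 ± 0.12, limma adjusted p = 0.447). Pf4, a platelet chemokine that fetal macrophages also express, read 6.38, 6.32 and 6.94 in wild type and 6.41, 6.25 and 6.21 in the mutant, with wild type 5 alone above the mark (-0.25 ± 0.17, limma adjusted p = 0.488). Without wild type 5 the difference was -0.054 for Pf4 (limma adjusted p = 0.882) and -0.11 for Apoe.

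Wild type 5, the array with the liver signal, also read high for many leukocyte genes. It held the highest of the 3 wild-type values for 22 of 39 members (56.4%), against 36.0% of all genes. Pf4 was 0.59 log2, Lcp1 0.55, Adgre1 0.51, Cd14 0.47 and Irf8 0.45 above the mean of wild types 1 and 2. Cd52, Fcgr1 and Lyz1 were lower there, by -0.37, -0.35 and -0.34. The median excess on that array was 0.08 log2 over the members, 1.65 over 14 liver markers, 0.42 over 7 erythroid markers and -0.05 over 11 endothelial markers. Without wild type 5, 22 members had positive and 17 negative differences, the median was 0.02 log2 and 0 members passed the adjusted threshold. The part of the liver and erythroid signal in the leukocyte values was not tested.

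**Figure D3:**
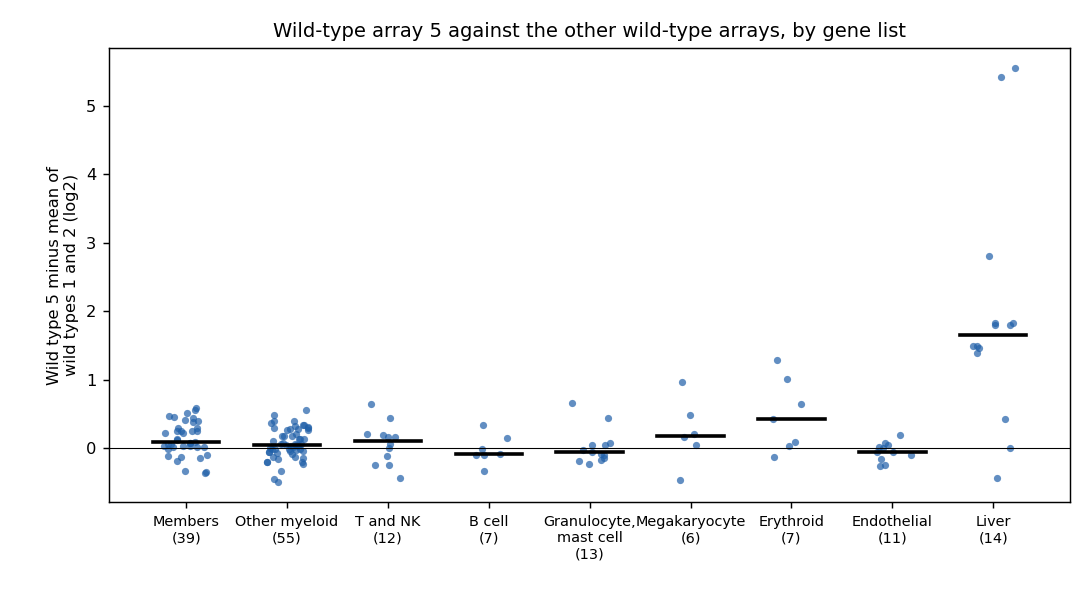
Value on wild-type array 5 minus the mean of wild types 1 and 2 (y axis, log2) for the 39 members and 8 other lists; each point is a gene, the number in brackets the genes measured, and the bar the median. The liver list has a median of 1.65, the erythroid list 0.42 and the members 0.08.

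Further genes of the pathway were read from lists of the same kind. Of 55 other macrophage and myeloid genes, 1 rose and 3 fell, with a median of 0.02 log2. The background for this list and those below is the 6.94% of all genes called, 2.64% higher and 4.30% lower. Gas6, a bridging ligand for receptors that take up dying cells, rose from 9.30, 9.11 and 9.01 to 10.19, 10.03 and 10.13 (0.98 ± 0.12 log2, limma adjusted p = 0.00221). The heme-degrading Hmox1 fell by 0.72 ± 0.12 log2 (limma adjusted p = 0.00817) and Cebpa, a myeloid and adipocyte transcription factor, fell by 0.82 ± 0.11 log2 (limma adjusted p = 0.00322). H2-Aa, an MHC class II chain, fell from 7.12, 6.82 and 6.77 to 5.04, 5.98 and 4.89, with all mutant arrays below the mark (-1.60 ± 0.26 log2, limma adjusted p = 0.00785). Other genes of antigen presentation, chosen after their values were seen, did not pass. H2-Eb1 differed by -0.04 log2 and the invariant chain Cd74 by -0.14, with limma adjusted p-values of 0.935 and 0.728. Gas6, Hmox1 and Cebpa are made by cells other than leukocytes as well. Which cells account for the calls in this list and in those below was not tested.

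Among 24 leukocyte signalling genes, 3 rose and 0 fell. Plcg2, a phospholipase downstream of immune receptors, rose by 1.03 ± 0.16 log2 (limma adjusted p = 0.00676), and Cd44, a hyaluronan receptor, by 0.96 ± 0.11 (limma adjusted p = 0.00177), though Cd44 lay below the mark in both group means. Dock2, a Rac activator of hematopoietic cells, rose by 0.68 ± 0.15 log2 (limma adjusted p = 0.0313). Its call was lost on leaving out wild type 1, 2 or 5 or mutant 3 or 4, with adjusted p-values up to 0.137. Of 19 other complement genes, 1 fell: C7, a component of the membrane attack complex, went from 8.03, 8.04 and 8.09 to 5.82, 6.77 and 5.69 (-1.96 ± 0.25 log2, limma adjusted p = 0.00237). C3ar1, the receptor for the complement fragment C3a, was 0.44 ± 0.12 log2 higher without passing (limma adjusted p = 0.0818); it was chosen after its values were seen.

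Of 18 lysosomal proteases and hydrolases, which most cell types make, 5 fell and 0 rose, with a median of -0.23 log2. Ctsl (cathepsin L) fell by 1.11 ± 0.14 log2 (limma adjusted p = 0.00221) and Ctso (cathepsin O) by 0.70 ± 0.12 (limma adjusted p = 0.00959; 0.0505 without wild type 1). Lipa, the lysosomal acid lipase, fell by 0.65 ± 0.15 log2 (limma adjusted p = 0.0401) and Hexa, a hexosaminidase subunit, by 0.58 ± 0.12 (limma adjusted p = 0.0213). The call of Hexa was lost without wild type 1 or 2 or mutant 3, with adjusted p-values up to 0.0979. That of Lipa was lost with a further quantile normalization and on leaving out any array except mutant 6, with adjusted p-values up to 0.145. The fifth was Ctsa (cathepsin A), at -0.44 ± 0.11 log2 with a limma adjusted p of 0.0488, lost with a further quantile normalization and whichever array was left out, up to 0.170.

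**Figure D4:**
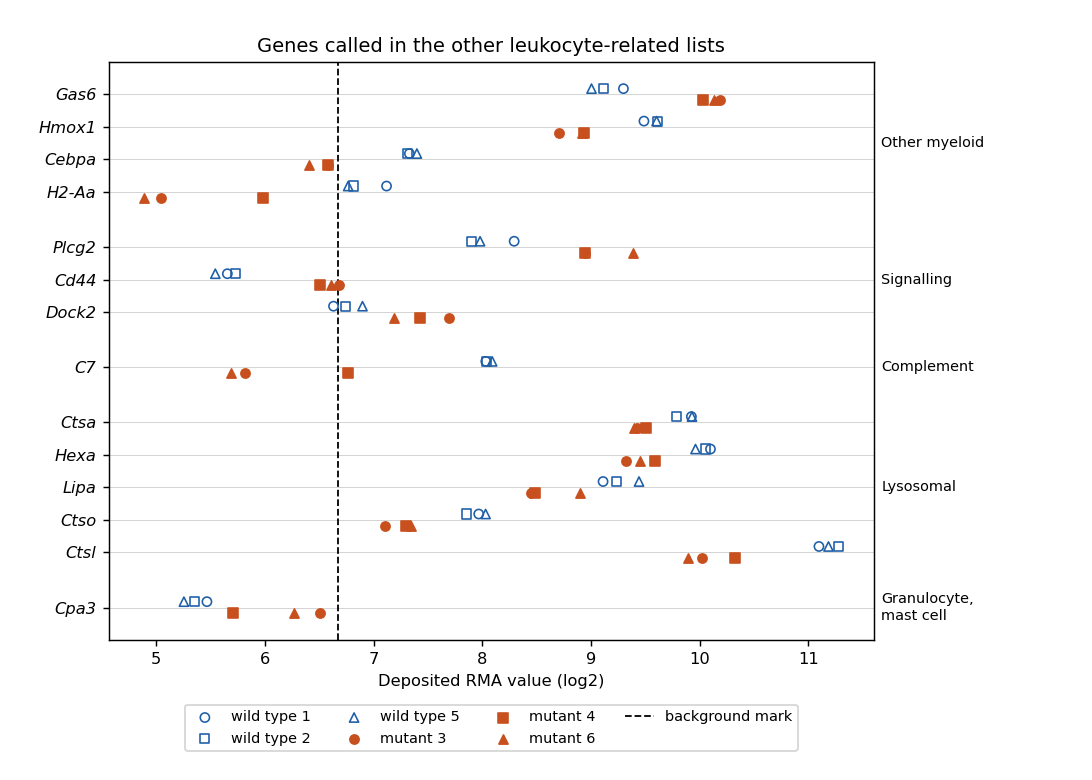
Deposited log2 RMA value (x axis) on each array of the 14 genes that passed a limma adjusted p of 0.05 in the lists of other myeloid, signalling, complement, lysosomal and granulocyte or mast cell genes; open blue symbols are wild-type pools, filled orange symbols mutant pools, and the dashed line the background mark of 6.67 log2. No gene overlaps between groups; Gas6, Plcg2, Cd44, Dock2 and Cpa3 are higher in the mutant and the other 9 lower.

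Markers of other blood and vessel cells are given beside the leukocyte genes because such cells could be present in the pools. Of 12 T and NK cell markers and 7 B cell markers, none passed the limma threshold, and 1 and 0 had an unadjusted p under 0.05. The share above the mark in both groups was 25% for T and NK and 42.9% for B cell markers, beside 48.7% for the members. It was 7.69% for granulocyte and mast cell markers and 50% for megakaryocyte and platelet markers. Cd8a, Thy1, Igll1 and Vpreb1 differed by 0.11, -0.03, 0.22 and 0.28 log2 with overlapping groups. Of 13 granulocyte and mast cell markers 1 rose. It was the mast cell protease Cpa3, which read 5.47, 5.35 and 5.26 in wild type and 6.51, 5.71 and 6.27 in the mutant, below the mark on all arrays (0.80 ± 0.19 log2, limma adjusted p = 0.0420). That call was lost with a further quantile normalization, with array weights, and without wild type 1, 2 or 5 or mutant 3 or 6, up to an adjusted p of 0.134. Of 6 megakaryocyte and platelet markers none passed and none had an unadjusted p under 0.05 (Treml1 0.19, Itga2b 0.07 log2).

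Of 11 endothelial markers none passed the limma threshold, while 5 (45.5%) had an unadjusted p under 0.05, against 21.7% of all genes. All 11 lay above the mark in both groups, and among all genes above it that share was 27.3%. Of the differences 10 were negative and 1 positive, with a median of -0.27 log2. The positive one was that of Kdr (the VEGF receptor 2), 0.38 ± 0.12 log2 higher. Cdh5 (VE-cadherin) differed by -0.28 ± 0.12, and the limma adjusted p-values of Kdr and Cdh5 were 0.113 and 0.235. Of 7 erythroid markers 1 fell, Alas2, the first enzyme of heme synthesis in red cells, by 0.51 ± 0.12 log2 (limma adjusted p = 0.0334). The call of Alas2 was lost with a further quantile normalization and whichever array was left out, up to an adjusted p of 0.121. Of 14 liver markers none passed, and 2, Rbp4 and Ahsg, had an unadjusted p under 0.05 (-1.09 and -1.08 log2, chosen after their values were seen). Trf and Apoa2, which the naming rule picked, differed by -0.94 and -0.74 log2 without reaching that level, and both read highest on wild type 5. Whether the contributions of these cells bear on the leukocyte values was not tested.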

How the data were processed

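Values were the log2 RMA values of the series table as the authors deposited them, RMA being named in the submitters' processing notes. RMA corrects background, normalizes arrays by quantiles and summarizes probes, so a general change in RNA content cannot be seen. Not given in the sources used here are the software version, the annotation and the genome build of the array. Of 34760 rows, 6573 with identifiers below the lowest annotated one were left out. The remaining 28187 probe sets held 21640 annotated to 1 gene, and 21553 of these matched RefSeq by Entrez identifier.

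All 28187 probe sets were fitted in R 4.3.3 by the limma package, version 3.58.1 (functions lmFit and eBayes, 3 arrays a group, no covariate), with Benjamini-Hochberg adjustment over all of them, a 2-sided threshold of 0.05 and 95% confidence intervals. The precision is limited by the number of arrays. The procedure was tested on simulated data with noise drawn independently for each value. That test could not show effects of arrays that stood apart, such as wild type 5 and mutant 4. Deposited values ran from 2.45 to 14.49 log2, and array medians from 7.17 to 7.24. Every member is named. Values on every array are given for the highest-mean gene of each role, the 6 lowest unadjusted p-values, the C1q chains, Csf1, Csf1r, Ptprc and Spi1, and for some others, Adgre1 and Pf4 among them, picked after their values were seen. From other lists the called genes, at most 4 a list by size of change, or else the 2 with the highest means are named, and any other gene is marked. The members and the lists were chosen with earlier results of these data known. Promoter sequences are from RefSeq (GRCm38.p6), and not every chromosome was searched. Alternatives comprised normalization, filter, variance model, array weights, a term for arrays 5 and 6, the mean of probe sets, the threshold, the background mark and leaving out each array. Figures were drawn with matplotlib 3.10.9 in Python 3.11.15.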

Additional observations from a re-analysis of the deposited data

How the results depend on the processing

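Over 487 combinations of a member and an alternative, 451 kept the direction and the side of the threshold, 34 changed direction and 2 became calls. The changes of direction concerned 12 members, whose turned differences were at most 0.17 log2 in size, none with a limma adjusted p below 0.631. The members called numbered 1 when only probe sets above the background mark were fitted (Dab2), 1 with a term for arrays 5 and 6 (Irf8) and 3 at an adjusted p of 0.10 (Spi1, Irf8, Dab2). All genes called numbered 2094 at an adjusted p of 0.10, and 593 to 1292 on leaving out an array, with fewer samples in the fit. Members above background in both groups numbered 26 at the 90th percentile mark and 7 at the 99th.

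With a further quantile normalization the differences were -0.0015 for Csf1r, -0.030 for Aif1, -0.052 for Cd14 and -0.0051 for Lcp2. With a common median they were -0.018 for Csf1r and -0.010 for Cd14. With array weights they were -0.0085 for Aif1, -0.062 for Cd14, -0.098 for C1qb and 0.0015 for Ctss. Leaving out an array gave ranges of -0.15 to 0.044 for Csf1, -0.15 to 0.15 for Aif1, -0.12 to 0.19 for Cd14, -0.040 to 0.032 for Csf1r, -0.049 to 0.24 for Adgre1, -0.088 to 0.12 for C1qa, -0.028 to 0.10 for Lcp2, -0.25 to 0.019 for Tyrobp, -0.12 to 0.066 for Ctss, -0.18 to 0.084 for Cd53, -0.18 to 0.11 for Lcp1 and -0.17 to 0.34 for C1qb. The cause of these changes was not tested. The median difference of the members ranged from -0.06 to 0.02 log2 on leaving out an array. No paired analysis was possible because the groups share no array number. With 3 arrays a group, differences under the interval half-widths cannot be resolved, and differences of genes under the background mark are understated.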

Other observations

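H2-Ab1, an MHC class II chain, stood apart on 1 array: it read 7.46 on mutant 3 and between 6.12 and 6.28 on the other 5 arrays (difference 0.33 ± 0.30 log2, limma adjusted p = 0.622). H2-Aa, its partner chain, read lower on mutant 3 than on every wild-type array. The platelet chemokine Ppbp read 7.45 on wild type 5, against 6.43 and 6.53 on wild types 1 and 2 and 6.23, 6.51 and 6.16 on mutants 3, 4 and 6. The highest value of a member fell on wild type 5 for 14 of 39 genes, on mutant 3 for 8, on wild type 1 and mutant 4 for 6 each, on wild type 2 for 3 and on mutant 6 for 2.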
